A study of Mus musculus with 45 samples.

Results

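The aryl hydrocarbon receptor pathway was examined through 6 genes taken by name: Ahr, the receptor; Arnt, its dimer partner; Ahrr, its repressor; Tiparp, a target whose product acts back on the receptor; and the target genes Cyp1a1 and Cyp1b1. They are 6 of the 34994 genes in the deposited count tables, and all 6 passed the filter on low counts in every fit. The libraries came from forelimb buds of CD1 mouse embryos of gestation day 13, cultured as whole limbs with the solvent dimethyl sulfoxide (DMSO, called control) or with 10 or 50 µM of bisphenol S (BPS), a compound that has replaced bisphenol A in many plastics and papers. The 9 groups are control, 10 µM and 50 µM BPS at 3, 24 and 48 h, with 5 libraries each, and all bottles, controls included, held the same medium and gas mixture. Excised forelimbs were pooled and both sexes shared a bottle, so no library stands for 1 embryo or 1 sex. The strain field of the 5 libraries of 50 µM BPS at 48 h reads CD2 to CD6, 1 library each, where the other 40 libraries read CD1. Why these fields differ is not given in the sources used here, and the 5 libraries were analysed as 1 group.

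The receptor is a ligand-activated transcription factor of the bHLH-PAS family. It waits in the cytoplasm with heat shock protein 90, moves to the nucleus when a ligand such as a dioxin, a polycyclic aromatic hydrocarbon or a tryptophan photoproduct binds, and there pairs with ARNT at response elements with the core GCGTG. Transcription of Cyp1a1, Cyp1b1, Ahrr and Tiparp is the classical readout. CYP1A1 and CYP1B1 oxidise many planar aromatic ligands and so clear them, AHRR competes with the receptor for ARNT, and TIPARP is a mono-ADP-ribosyltransferase that lowers receptor activity. ARNT also serves the hypoxia-inducible factors. In mouse embryos strong receptor ligands are known for cleft palate and hydronephrosis.

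The promoter letters of the 4 classical targets (Cyp1a1, Cyp1b1, Ahrr and Tiparp) are shown first. Windows of 300 bases, from 250 before to 50 after the transcript start, were taken from RefSeq (GRCm38.p6) for 5 of the 6 genes. Ahr is not in that table. The core GCGTG was searched on both strands, so its reverse complement CACGC counts too. All 5 windows hold it, as do 32.6% of 32544 distinct mouse promoter windows of the same length. Ahrr has 3 copies, a number that 3.94% of the windows reach, and the other 4 genes have 1 copy each. The longer form TNGCGTG, which contains the core, was found in Ahrr alone among the 5, and in 5.09% of all windows. The 250 bases before the start of the 4 genes are printed below, 5′ to 3′ on the gene's strand, with each core in capitals. They lie at chr9:57697363-57697612 (plus strand, Cyp1a1), chr17:79715062-79715311 (minus strand, Cyp1b1), chr13:74292332-74292581 (minus strand, Ahrr) and chr3:65528197-65528446 (plus strand, Tiparp).
Cyp1a1: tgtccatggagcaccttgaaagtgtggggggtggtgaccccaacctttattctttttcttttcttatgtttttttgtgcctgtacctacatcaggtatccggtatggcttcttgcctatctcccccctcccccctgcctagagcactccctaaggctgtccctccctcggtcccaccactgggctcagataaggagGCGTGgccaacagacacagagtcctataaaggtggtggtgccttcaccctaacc
Cyp1b1: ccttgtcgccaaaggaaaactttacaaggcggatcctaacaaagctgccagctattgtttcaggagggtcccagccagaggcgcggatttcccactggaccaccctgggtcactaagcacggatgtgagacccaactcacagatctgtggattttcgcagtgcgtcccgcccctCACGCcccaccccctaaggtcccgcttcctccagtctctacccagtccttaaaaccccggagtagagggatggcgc
Ahrr: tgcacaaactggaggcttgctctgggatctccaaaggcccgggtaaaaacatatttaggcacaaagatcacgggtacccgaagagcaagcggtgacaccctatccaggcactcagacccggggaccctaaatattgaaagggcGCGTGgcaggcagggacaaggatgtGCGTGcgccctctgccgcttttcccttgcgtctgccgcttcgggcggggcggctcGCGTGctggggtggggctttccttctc
Tiparp: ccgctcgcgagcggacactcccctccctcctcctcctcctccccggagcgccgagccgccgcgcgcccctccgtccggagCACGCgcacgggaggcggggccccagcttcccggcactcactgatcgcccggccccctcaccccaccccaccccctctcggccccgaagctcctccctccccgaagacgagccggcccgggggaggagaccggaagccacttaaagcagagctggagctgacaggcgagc
The first base of the core lies 54 bases before the start in Cyp1a1, 76 in Cyp1b1 and 170 in Tiparp, and 107, 82 and 27 bases before it in Ahrr. In Arnt, a gene whose level hardly moved, the single core lies 29 bases before the start. Such a match is a description of letters and no proof of a bound site. The response elements best known for mouse Cyp1a1 lie further upstream, outside this window.

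**Figure D1:**
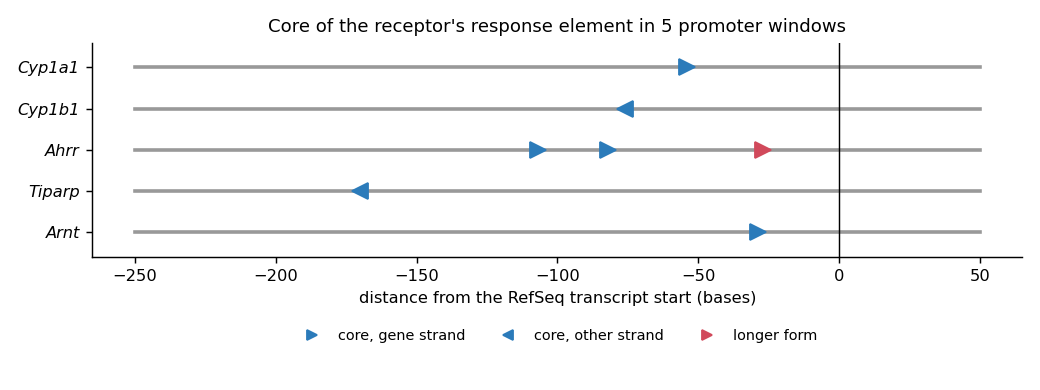
Map of the 300-base windows around the RefSeq transcript start of 5 genes; the horizontal axis is the distance from the start in bases, and each arrowhead is a copy of the core on the gene's strand (pointing right) or on the other strand (pointing left), red where it is part of the longer form. All 7 copies lie before the start, 3 of them in Ahrr.

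In the deposited annotation (mm10, per the submitters' processing notes) Ahr is ENSMUSG00000019256 on chromosome 12 (35497974 to 35535038, minus strand) and Arnt is ENSMUSG00000015522 on chromosome 3 (95434388 to 95497240, plus strand). Ahrr is ENSMUSG00000021575 on chromosome 13 (74211118 to 74292331, minus strand) and Tiparp is ENSMUSG00000034640 on chromosome 3 (65528410 to 65555518, plus strand). Cyp1a1 is ENSMUSG00000032315 on chromosome 9 (57687928 to 57703824, plus strand), with its RefSeq start inside that span, and Cyp1b1 is ENSMUSG00000024087 on chromosome 17 (79706953 to 79715041, minus strand). Nothing in the labels says that the library kit marks strand, and reads of overlapping genes cannot then be separated. Ahr overlaps Gm48236 (at most 0.295 CPM, reads per 1000000 counted reads), Arnt overlaps Gm42672 (at most 1.54 CPM) and Tiparp overlaps 4931440P22Rik (0.927 to 3.01 CPM). Each of these lies far below the gene it overlaps.

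The libraries held 15233143 to 23077457 reads counted in genes, and the lowest count of any of the 6 genes in any library was 30 reads (Cyp1a1). The forelimb gene Tbx5 averaged 279 CPM over the 45 libraries against 25.3 CPM for Tbx4 and 4.73 CPM for Pitx1, which mark the hindlimb, and all 10 limb markers were detected in every library. Whether the 5 libraries of a group came from separate bottles or litters is not in the labels, so a p-value measures the spread between libraries, which may in part be technical. In bulk RNA a smaller share of a cell type and less RNA per cell cannot be told apart. One set of libraries stood apart for these genes: at 3 h, replicate 5 had the highest Cyp1a1, Cyp1b1 and Tiparp of all 3 groups. The 3 h levels of these 3 genes and of Ahrr, and the comparisons of the 6 genes with the 3 h groups that lead the text, are therefore also given without replicate 5. Likeness and the gene lists were read with all libraries.

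Cyp1a1 and Cyp1b1 varied most between libraries and Arnt least. Per kilobase of deposited gene length, the mean level over 45 libraries was 16.8 CPM for Arnt, 7.35 for Tiparp, 5.87 for Cyp1b1, 2.21 for Cyp1a1, 1.99 for Ahr and 0.791 for Ahrr. Arnt ranged from 117 to 146 CPM, a ratio of 1.25 between the highest and the lowest library, and Ahr from 8.80 to 18.1 CPM, a ratio of 2.05. By contrast Cyp1a1 spanned 1.96 to 30.1 CPM, a ratio of 15.3, and Cyp1b1 spanned 11.2 to 59.6 CPM, a ratio of 5.32. The ratio was 1.77 for Tiparp (26.9 to 47.6 CPM) and 2.35 for Ahrr (5.22 to 12.3 CPM), so only the 2 CYP1 genes went past 3-fold.

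**Figure D2:**
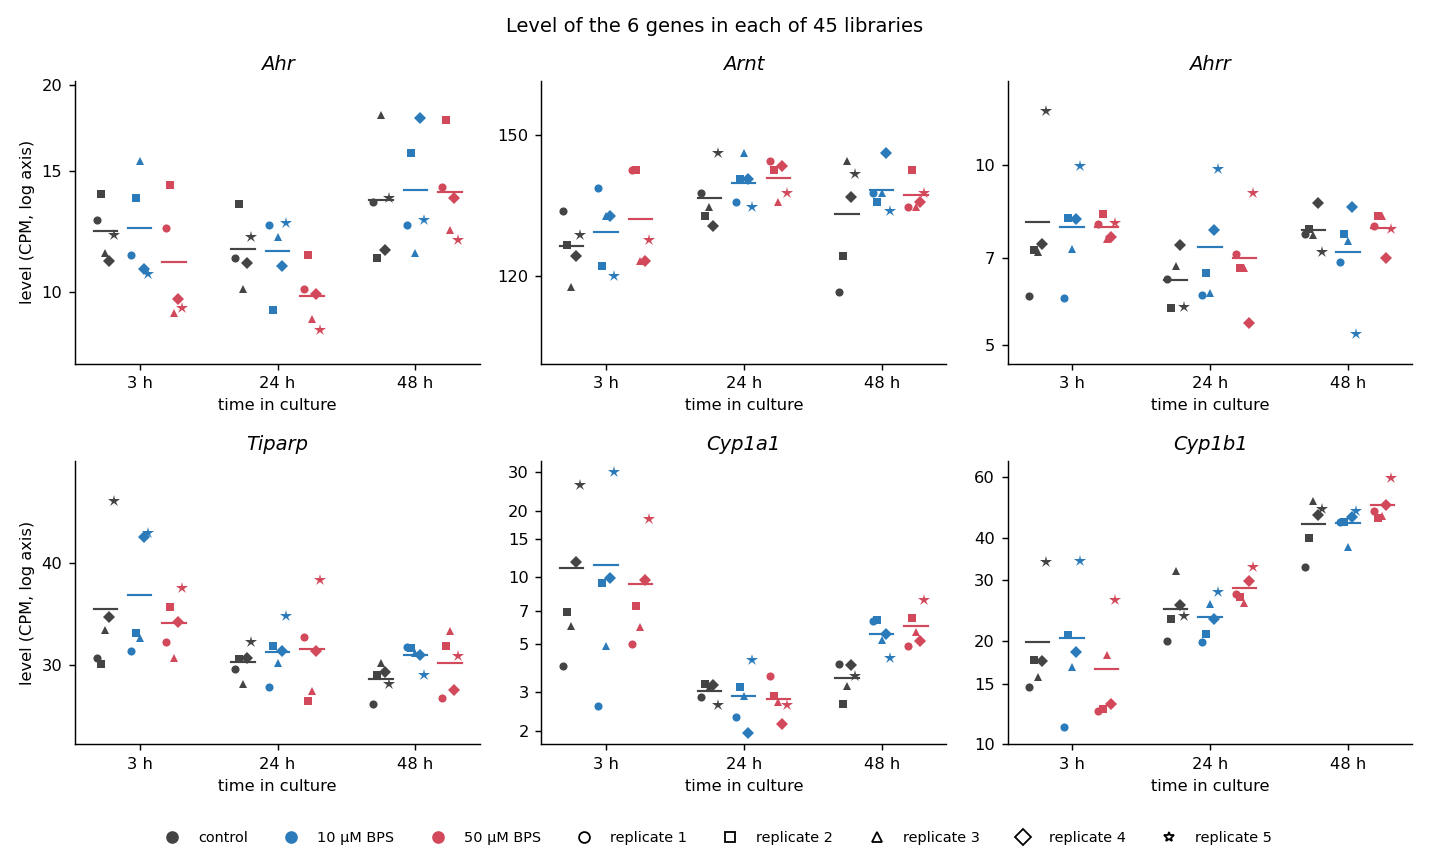
Level of each gene in CPM (log axis, a different range in each panel) in all 45 libraries, by time and dose; symbols are replicate numbers, colours are doses and horizontal lines are means of 5 libraries. Cyp1a1 spreads from 2.61 to 30.1 CPM at 3 h and is narrow at 24 h, Cyp1b1 is higher at 48 h, and Arnt stays between 117 and 146 CPM.

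Group means of Ahr lay between 9.84 ± 0.951 CPM (SD, n = 5; 50 µM BPS, 24 h) and 14.1 ± 2.73 CPM (10 µM BPS, 48 h). The order from high to low put the 3 groups of 48 h first and 50 µM BPS at 24 h last, but none of the 8 gaps between neighbours exceeded the larger of their SDs. Arnt means lay between 126 ± 5.69 CPM (control, 3 h) and 140 ± 4.14 CPM (50 µM BPS, 24 h), again with none of 8 gaps beyond the spread. Neither gene was called in any comparison made here.

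Ahrr, the repressor, was low throughout. Control libraries at 3 h held 6.05, 7.21, 7.16, 7.38 and 12.3 CPM in replicates 1 to 5, against 6.44, 5.76, 6.77, 7.35 and 5.80 CPM at 24 h and 7.67, 7.81, 7.62, 8.63 and 7.16 CPM at 48 h. The groups overlapped, and replicate 5 at 3 h was the single high value. At 10 µM BPS and 3 h replicate 5 was again highest (9.93 CPM, the others 5.99 to 8.14), while at 50 µM BPS and 3 h all 5 libraries lay between 7.51 and 8.28 CPM. Without replicate 5 the 3 h means were 6.95 ± 0.608, 7.37 ± 1.01 and 7.83 ± 0.356 CPM (SD, n = 4) in control, 10 µM and 50 µM BPS. None of the 8 gaps in the order of the 9 group means exceeded the spread.

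Tiparp, the ADP-ribosyltransferase, showed a similar picture at a higher level. In control it stood at 30.6, 30.1, 33.1, 34.4 and 47.6 CPM in replicates 1 to 5 at 3 h, at 29.7, 30.5, 28.4, 30.6 and 32 CPM at 24 h, and at 26.9, 29.2, 30.2, 29.4 and 28.4 CPM at 48 h. With 10 µM BPS at 3 h replicates 4 and 5 were high together (43.1 and 43.5 CPM, the others 31.2 to 32.8). With 50 µM BPS at 3 h the range was 30.6 to 37.3 CPM. The 3 h means without replicate 5 were 32 ± 2.03, 34.9 ± 5.54 and 33 ± 2.08 CPM (SD, n = 4) in control, 10 µM and 50 µM BPS. All groups of 24 and 48 h lay between 26.9 and 38.1 CPM, and none of the 8 neighbouring means differed beyond the spread.

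Cyp1a1, the monooxygenase gene used most often as the reporter of receptor activity, was variable at 3 h, low at 24 h and in between at 48 h with BPS. At 3 h control replicates 1 to 5 held 3.94, 6.98, 6.01, 11.7 and 26.3 CPM. With 10 µM BPS they held 2.61, 9.40, 4.87, 9.97 and 30.1 CPM, and with 50 µM BPS 5.00, 7.40, 5.95, 9.71 and 18.4 CPM. From lowest to highest the libraries ranked as replicates 1, 3, 2, 4 and 5 in each of the 3 groups. Replicate 5 exceeded replicate 1 by 6.69-fold in control, 11.5-fold at 10 µM and 3.69-fold at 50 µM, whereas the 3 group means (11 ± 9.04, 11.4 ± 10.9 and 9.30 ± 5.41 CPM, SD, n = 5) were close to each other. A test of replicate number over the 15 libraries of 3 h, chosen after these values were seen, called Cyp1a1, Cyp1b1 and Tiparp, where 0.647% of 17150 genes were called (edgeR). The same test called none of the 6 genes at 24 h (22.5% of 17098 genes) or at 48 h (0.0175% of 17139 genes). Without replicate 5 the means were 7.15 ± 3.27, 6.71 ± 3.56 and 7.02 ± 2.05 CPM (SD, n = 4).

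**Figure D3:**
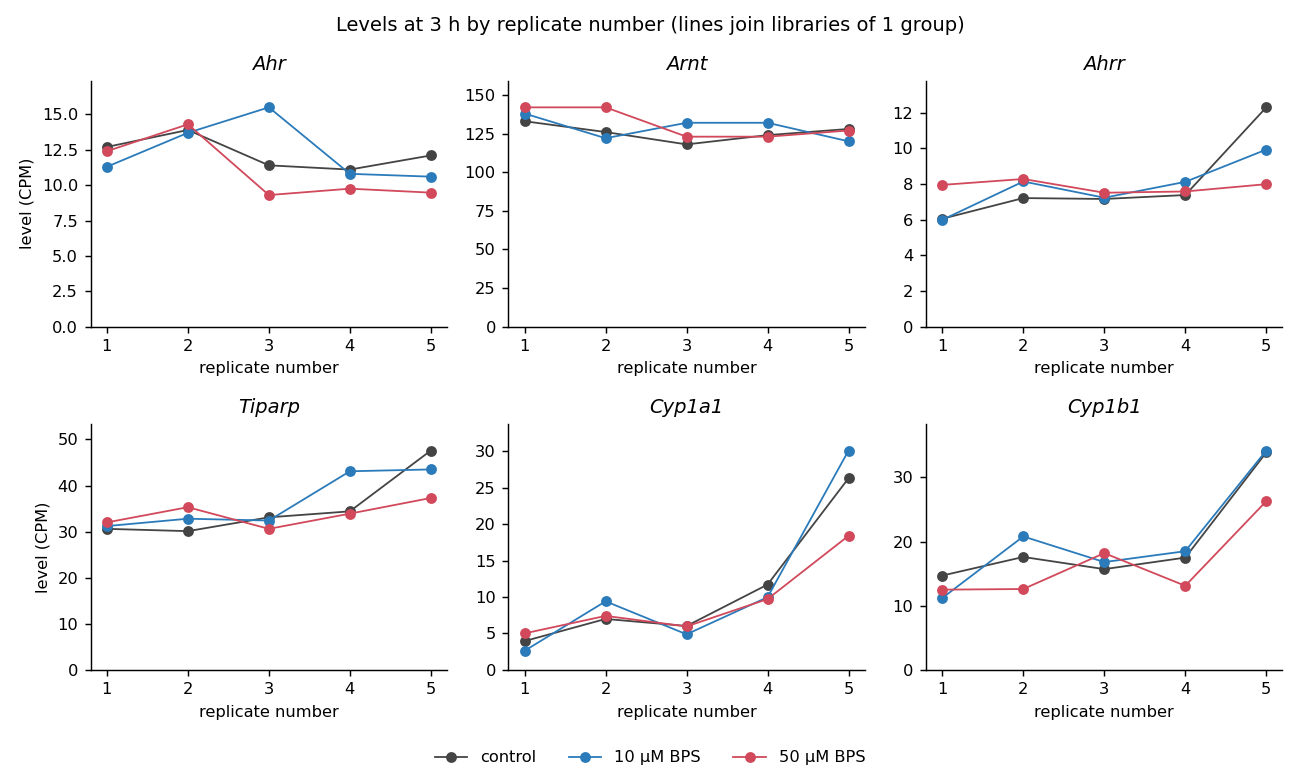
Level in CPM at 3 h against replicate number, with 1 line per group of 5 libraries. The 3 lines of Cyp1a1 run together and end at 26.3, 30.1 and 18.4 CPM in replicate 5, Cyp1b1 and Tiparp are also highest there in all 3 groups, and Ahr and Arnt are not.

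At 24 h the Cyp1a1 spread was gone. Control libraries held 2.85, 3.29, 3.15, 3.25 and 2.62 CPM, those with 10 µM BPS 2.31, 3.16, 2.88, 1.96 and 4.19 CPM, and those with 50 µM BPS 3.57, 2.88, 2.71, 2.16 and 2.62 CPM. The 3 groups overlapped fully. At 48 h control libraries held 4.03, 2.65, 3.20, 4.01 and 3.58 CPM. Those with 10 µM BPS held 6.31, 6.38, 5.21, 5.53 and 4.31 CPM, and those with 50 µM BPS 4.87, 6.51, 5.62, 5.15 and 7.93 CPM. Every library of either dose lay above every control library of 48 h, and the 2 doses overlapped. The share of all genes with such a separation was not counted. In the order of the 9 means, the step from 10 µM BPS at 48 h (5.55 ± 0.856 CPM) down to control at 48 h (3.49 ± 0.584 CPM) was the only one of 8 beyond the larger SD.

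Cyp1b1, the related monooxygenase that is known from mesenchymal tissues, rose with time in culture. Control replicates 1 to 5 held 14.7, 17.6, 15.7, 17.5 and 33.9 CPM at 3 h, 20, 23.1, 31.9, 25.4 and 23.6 CPM at 24 h and 32.8, 39.9, 51.1, 46.5 and 48.5 CPM at 48 h. Control libraries of 48 h did not overlap those of 24 h, and they overlapped those of 3 h only through replicate 5. With BPS the 48 h libraries held 44.5, 44.3, 37.5, 45.9 and 47.8 CPM at 10 µM and 47.7, 45.7, 46.3, 49.6 and 59.6 CPM at 50 µM, so the doses overlapped with control. At 3 h replicate 5 was highest in both BPS groups too (34.2 CPM against 11.2 to 20.8 at 10 µM, and 26.3 CPM against 12.5 to 18.2 at 50 µM). Leaving out replicate 5, the 3 h means were 16.4 ± 1.40, 16.8 ± 4.07 and 14.1 ± 2.76 CPM (SD, n = 4) in control, 10 µM and 50 µM BPS. In the order of the 9 means, the 3 groups of 48 h came first (49.8, 44.0 and 43.8 CPM for 50 µM, 10 µM and control), then those of 24 h and then those of 3 h. Of the 8 gaps, that between control at 48 h and 50 µM BPS at 24 h (15.2 CPM) and that between 50 and 10 µM BPS at 48 h (5.80 CPM) exceeded the larger SD.

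The comparison of BPS with control at each time asked whether BPS changed these genes. Of 36 values (6 genes, 2 doses, 3 times) 1 was called, Cyp1a1 at 50 µM and 48 h, and 2 had groups that did not overlap, Cyp1a1 at 48 h with either dose. How many of all genes had groups without overlap was not counted, so these 2 have no background to be read against. Differences are log2 values from edgeR's quasi-likelihood test on raw counts. Their SE was derived from that test, as the absolute log2 difference divided by the square root of F. A call is a Benjamini-Hochberg adjusted p below 0.05 over all genes tested. Cyp1a1 was higher by 0.78 ± 0.169 (SE, n = 5 against 5, a 1.72-fold difference) at 50 µM and 48 h, with an adjusted p of 0.0399. That is 1 of the 6 genes, where 1.00% of 16663 genes tested were called and 0.480% were called higher. In the authors' deposited table the same gene has a log2 fold change of 0.79 and an adjusted p of 0.00218.

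The size of the Cyp1a1 difference was steady and its call was not. Leaving out 1 of the 10 libraries at a time gave 0.66 to 0.85, with an adjusted p of 0.017 to 0.108 and no call in 8 of the 10 fits. The difference failed the threshold when control replicate 2 (adjusted p = 0.108), 3 (0.0577), 4 (0.061) or 5 (0.0549) was removed, and likewise without BPS replicate 2 (0.102), 3 (0.0858), 4 (0.0652) or 5 (0.0755). Without replicate 5 in both groups, edgeR gave 0.67 with an adjusted p of 0.0991.

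At 10 µM and 48 h Cyp1a1 was higher by 0.67 ± 0.159 (1.59-fold, higher in 5 of 5 libraries), with an unadjusted p of 0.000713 and an adjusted p of 1.00, so it was not called. By edgeR 0% of the 16725 genes tested were called in that comparison, with 438 at an unadjusted p below 0.05, and DESeq2 also called 0. The 2 doses share the 5 control libraries, and a low value in those libraries raises both differences.

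The other 5 genes differed from control by -0.26 to 0.21 in their 30 values, and none was called. At 48 h and 50 µM the log2 difference was 0.18 ± 0.109 for Cyp1b1, 0.06 ± 0.0729 for Tiparp, 0.00 ± 0.104 for Ahrr, 0.04 ± 0.135 for Ahr and 0.04 ± 0.0603 for Arnt. So at the dose and time at which Cyp1a1 was called, the other 3 classical targets differed from control by less than 2 SE. Whether Cyp1a1 responded differently from those 3 was not tested.

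At 3 h none of the 6 genes was called at 10 µM (0% of 16654 genes by edgeR, 329 at an unadjusted p below 0.05, 0 by DESeq2) or at 50 µM (0.0538% of 16722 genes). Cyp1a1 differed by 0.07 ± 0.746 at 10 µM and by -0.23 ± 0.592 at 50 µM. These SEs are several times that of 48 h. Without replicate 5 in both groups the 2 values were -0.08 ± 0.519 and -0.01 ± 0.328. With replicate number as a term they were -0.05 ± 0.130 and -0.12 ± 0.113, also not called, with SEs below that of 48 h. For the other 5 genes the 3 h differences without replicate 5 included -0.215 ± 0.126 for Cyp1b1, 0.17 ± 0.124 for Ahrr and 0.04 ± 0.0772 for Tiparp at 50 µM, and none was called at either dose. At 24 h none was called at 10 µM (0% of 16529 genes by edgeR, 494 at an unadjusted p below 0.05, 0 by DESeq2) or at 50 µM (0.375% of 16512 genes). The values nearest to a call at 24 h were both at 50 µM. They were Ahr at -0.22 ± 0.107 (adjusted p = 0.416) and Cyp1b1 at 0.21 ± 0.104 (adjusted p = 0.427). These fits had no term for replicate number, a term that called 22.5% of 17098 genes at 24 h (edgeR).

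**Figure D4:**
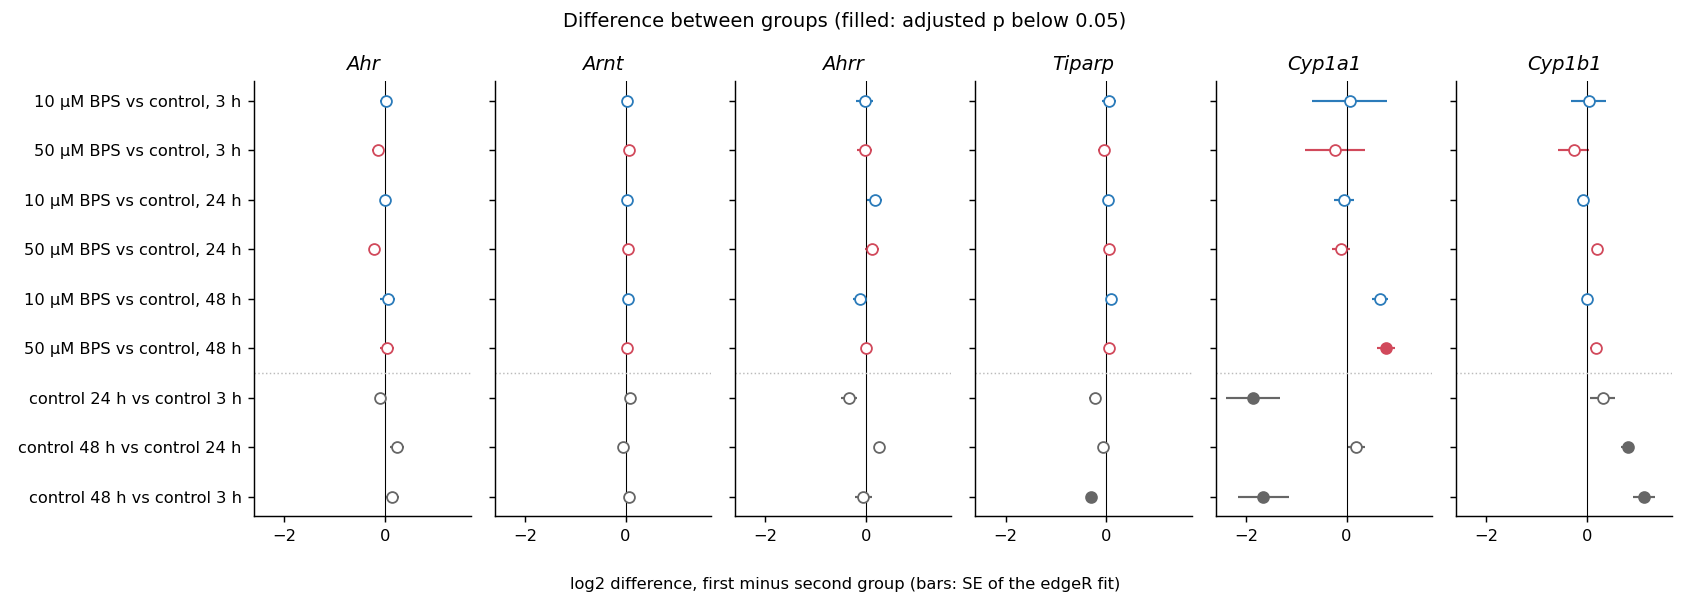
Log2 difference between 2 groups for each gene (first minus second group, bars are the SE derived from the edgeR test). BPS against control lies above the dotted line and control time points below it. Filled points have an adjusted p below 0.05. Cyp1a1 holds the only filled point of BPS against control (0.78), and its bars at 3 h are the widest.

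Other cell types and RNA quality were read beside the 48 h result. At 50 µM and 48 h the 7 macrophage markers summed to 108 to 173 CPM (control 161 to 224), with Csf1r, C1qa and Lyz2 lower, and the 7 endothelial markers to 188 to 233 CPM (control 216 to 292), with Cdh5 lower. The 6 RNA quality transcripts, of mitochondrial and nuclear origin, summed to 13100 to 14600 CPM (control 9680 to 11700), with mt-Co1 higher by 0.50. The 10 epidermal markers summed to 613 to 903 CPM at 50 µM, 578 to 1280 CPM at 10 µM and 568 to 929 CPM in control, with 0 of 10 called by edgeR or DESeq2 at either dose and 0 (50 µM) or 1 (10 µM) at an unadjusted p below 0.05. At 10 µM the macrophage sum was 168 to 187 CPM and the RNA quality sum 10600 to 12400 CPM, and no gene was called. No marker of these lists was at 0 across a group, and their part in the Cyp1a1 difference was not tested.

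Comparing 50 with 10 µM at each time, in a fit of all 45 libraries, asked for a dose step. None of the 6 genes was called by edgeR or DESeq2, or had an unadjusted p below 0.05, where 0.00543%, 0.0543% and 0.738% of 18432 genes were called at 3, 24 and 48 h. For Cyp1a1 at 48 h the step was 0.11 ± 0.440, which does not show that the doses act alike. Averaged over the 3 times, none was called at 50 µM (5.60% of genes) or at 10 µM (0%, with 656 genes at an unadjusted p below 0.05 and 0 by DESeq2), and none of the 6 had an unadjusted p below 0.05. Cyp1a1 stood at 0.15 ± 0.264 and 0.23 ± 0.263, or at 0.18 ± 0.173 and 0.14 ± 0.174 without replicate 5. In that fit the spread of Cyp1a1 at 3 h enters every contrast: there its 48 h difference at 50 µM was 0.79 ± 0.457, with an adjusted p of 0.439. A test of whether the response differed between times called none of the 6 at 50 µM (0.0109% of genes). At 10 µM it also called none (0%, 389 genes at an unadjusted p below 0.05, 0 by DESeq2). The adjusted p of Cyp1a1 at 50 µM was 0.884 in this edgeR test. With the 3 h spread in its error, the test does not show that Cyp1a1 responded alike at the 3 times.

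From 3 to 48 h in control Cyp1a1 fell and Cyp1b1 rose. From 3 to 24 h in control Cyp1a1 fell by 1.86 ± 0.537 on the log2 scale (adjusted p = 0.0239), the only one of the 6 genes called where 40.2% of 16536 genes were. From 24 to 48 h Cyp1b1 rose by 0.81 ± 0.130 (1.76-fold, adjusted p = 0.000458), again 1 of 6, with 16.0% of 16694 genes called. From 3 to 48 h Cyp1b1 rose by 1.14 ± 0.222 (2.20-fold, adjusted p = 0.00129), Cyp1a1 fell by 1.65 ± 0.501 (adjusted p = 0.0208) and Tiparp fell by 0.29 ± 0.107 (adjusted p = 0.0319), which makes 3 of 6 where 49.3% of 16850 genes were called. Each of these shares is close to that of all genes or below it.

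Replicate 5 at 3 h decided part of this. Without replicate 5 in both groups Cyp1a1 fell by 1.19 ± 0.275 from 3 to 24 h (adjusted p = 0.00385) and by 1.05 ± 0.285 to 48 h (adjusted p = 0.009), a smaller fall with a smaller error. Cyp1b1 then rose by 0.60 ± 0.120 already from 3 to 24 h (adjusted p = 0.000612; 0.31 ± 0.241 and not called with all libraries) and by 1.37 ± 0.128 to 48 h. Tiparp was then -0.16, with an adjusted p of 0.14, and not called. Leaving out 1 library at a time, the fall of Cyp1a1 to 24 h was not called in 4 of 10 fits (highest adjusted p 0.0541), its fall to 48 h in 3 of 10 (0.0546) and that of Tiparp in 6 of 10 (0.0983), while the 2 rises of Cyp1b1 were called in all 10 fits each. The call of Cyp1a1 was lost without control replicate 1, 2, 3 or 5 of 24 h, and to 48 h without replicate 1, 2 or 3 of 48 h. That of Tiparp was lost without replicate 4 or 5 of 3 h or replicate 1, 2, 4 or 5 of 48 h.

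Cell type markers moved over the same time. From 3 to 48 h in control all 7 macrophage markers rose (median 1.5, from a sum of 46.5 to 53.9 CPM to one of 161 to 224 CPM) and 5 of 6 skeletal muscle markers rose (median 1.46). All 6 erythroid markers fell (median -2.82) and 6 of 7 endothelial markers fell (median -0.33), while of 10 epidermal markers 3 rose and 3 fell. Of 10 limb markers 3 rose and 7 fell, while their sum went from 5920 to 6270 CPM to one of 15800 to 21000 CPM. Over all genes 24.5% rose and 24.8% fell. No marker was at 0 across a group. Their part in the changes of Cyp1a1, Cyp1b1 and Tiparp was not tested.

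Around these 6 genes, 6 lists of pathway genes were read: chaperones and coregulators of the receptor, its other targets, the bHLH-PAS family, electron donors of the cytochromes with enzymes of tryptophan ligands, relatives of TIPARP, and hypoxia genes that use ARNT. Of their 82 genes in the tables, 63 to 66 were tested in each comparison of BPS with control at 1 time. None of these 387 values was called by edgeR, 36 had an unadjusted p below 0.05, and DESeq2 called 4, all at 50 µM and 48 h: Slc7a5 (0.52) and Ncoa3 (0.25) higher and Zc3hav1 (-0.41) lower, with Sim2 (0.36) higher. In that comparison DESeq2 called 462 of all 16663 genes, and 11 of 66 list genes had an unadjusted edgeR p below 0.05 against 2157 of all genes. At 3, 24 and 48 h edgeR called 0% of all genes at 10 µM, and 0.0538%, 0.375% and 1.00% at 50 µM. Of the 16512 to 16725 genes tested, 329, 494 and 438 had an unadjusted edgeR p below 0.05 at 10 µM. At 50 µM 1334, 2048 and 2157 did. Among other targets of the receptor, Cyp1a2, the neighbour and close relative of Cyp1a1, had 0 reads in 43 of 45 libraries, where 3 reads correspond to 0.13 to 0.197 CPM. Nqo1, a quinone reductase, averaged 12.3 CPM in control at 48 h, and Aldh3a1, an aldehyde dehydrogenase, 1.41 CPM.

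At 50 µM averaged over the 3 times, 10 of 71 genes of the lists were called, 6 higher and 4 lower, where 5.60% of all genes were. Among chaperones and coregulators, Xpo1, the nuclear export receptor, rose by 0.15 ± 0.0393 and Ncoa3, a coactivator, by 0.12 ± 0.0355 (2 of 12, median 0.03). Slc7a5, an amino acid transporter, rose by 0.24 ± 0.0592 (1 of 9 other targets, median 0.04). In the bHLH-PAS family Per2 (0.27 ± 0.0566), Per3 (0.19 ± 0.0538) and Sim2 (0.19 ± 0.0473) rose and Npas2 (-0.43 ± 0.0973) and Npas1 (-0.63 ± 0.193) fell (5 of 16, median 0.04). Zc3hav1, an antiviral zinc finger protein, fell by 0.26 ± 0.0611 and Parp12 by 0.18 ± 0.0505 (2 of 12, median -0.01). None of the 10 electron donor and tryptophan enzymes tested and none of the 12 hypoxia genes was called by edgeR or DESeq2 (3 and 2 had an unadjusted p below 0.05, medians 0.03 and -0.26), and the median over all genes was 0.00. In the same contrast 4 of 7 macrophage and 2 of 7 endothelial markers were lower and mt-Co1 was higher, and their part was not tested. At 50 against 10 µM and 48 h, 2 of 71 list genes were called, Sim2 (0.34) and Zc3hav1 (-0.65), both in the direction above. At 24 h and 50 µM the hypoxia list had a median of -0.52 with 0 of 12 called, in a fit without replicate number.

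With time in control, from 3 to 48 h, the receptor's chaperones and coregulators had 6 of 12 lower and 1 higher, led by Ncoa3 (-0.51 ± 0.077), Xpo1 (-0.50 ± 0.0816) and Cul4b (-0.59 ± 0.0975), the last a scaffold of the ubiquitin ligase that the receptor can join. Of 9 other targets 3 rose and 3 fell: Slc7a5 fell by 1.32 ± 0.0923 and Socs2, a cytokine signalling suppressor, by 0.80 ± 0.0787. Ugt1a7c, a glucuronosyltransferase, rose by 2.22 ± 0.371, from a level of 0.184 CPM that is close to that of 3 reads. The targets thus did not move one way with time. In the bHLH-PAS family 5 of 15 rose and 2 fell, with Npas2 at 1.66 ± 0.177, Arnt2, the relative of Arnt, at -0.93 ± 0.0896 and Sim2 at -0.89 ± 0.098. Por, which passes electrons to microsomal cytochromes, fell by 0.37 ± 0.0556 and Cyb5r3 rose by 0.30 ± 0.069 (2 higher and 1 lower of 6). Macrod1, which removes ADP-ribose, rose by 1.02 ± 0.141 and Parp1 fell by 0.43 ± 0.0605 (3 higher and 4 lower of 12). Of the hypoxia genes Egln3 (1.10 ± 0.205), Ndrg1 (0.87 ± 0.218) and Adm (1.09 ± 0.396) led 4 that rose, and 1 of 12 fell. Parp8, a relative of TIPARP, was higher by 0.33 ± 0.0669. Over all genes 24.5% rose and 24.8% fell in this comparison, with a median of -0.01.

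The 2 shorter steps divided these changes. From 3 to 24 h, where 40.2% of genes were called, Slc7a5 had already fallen by 1.44 ± 0.0839 and Nqo1 was lower by 0.34 ± 0.121 and Socs2 by 0.26 ± 0.0693 (0 higher and 3 lower of 6 other targets). Ncoa3 (-0.33), Xpo1 (-0.27) and the heat shock gene Hsp90aa1 (-0.27) led the chaperones and coregulators (2 higher and 5 lower of 12). Arnt2 (-0.36), the clock gene Clock (0.44) and Npas2 (0.96) led the bHLH-PAS family (6 higher and 4 lower of 15). Parp1 (-0.30), Macrod1 (0.68) and Parp2 (-0.35) led the relatives of TIPARP (2 higher and 3 lower of 12), among 7 electron donors and ligand enzymes 1 rose and 1 fell (Cyb5a, -0.21), and Adm (1.28) was the 1 hypoxia gene of 12 called.

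From 24 to 48 h, where 9.44% of genes rose and 6.55% fell, Nqo1 rose by 0.60 ± 0.147 and Aldh3a1 by 2.24 ± 0.469, from a level of 0.292 CPM that is close to that of 3 reads, while Socs2 fell by 0.56 ± 0.0705 (2 higher and 1 lower of 9). Nqo1 thus fell and then rose in control. Arnt2 (-0.58), Sim2 (-0.49) and Epas1 (0.56), a hypoxia-inducible factor, led the bHLH-PAS family (3 higher and 2 lower of 15). Cul4b (-0.36) and the kinase gene Src (-0.20) were the 2 of 12 chaperones and coregulators called. Cyb5r3 (0.32) and Por (-0.26) were called among 7, and Parp10 (0.70), Parg (-0.18) and Zc3hav1 (0.33) among 12 relatives of TIPARP. No hypoxia gene of 12 was called (edgeR and DESeq2, 0 at an unadjusted p below 0.05).

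The genes most like each of the 6 were read from Pearson's r of log2 CPM over 45 libraries, among 13587 genes. By the deviations from the 9 group means, which leave out dose and time, Cyp1b1 was the gene most like Cyp1a1 (r = 0.774), followed by Tiparp (0.692) and Cyp4f16 (0.651), with Ahrr in place 4 (0.649). The list of Cyp1b1 began with Cyp1a1 (0.774), Il20rb (0.612) and Tiparp (0.599), that of Ahrr with Tiparp (0.698), Cyp1a1 (0.649) and Mrs2 (0.570), and that of Tiparp with Ints13 (0.799), Ahrr (0.698) and Cyp1a1 (0.692). These 4 genes were thus among each other's nearest 9 by this measure. Taken by time, r of Cyp1a1 with Cyp1b1, Ahrr and Tiparp was 0.90, 0.85 and 0.84 over the 15 libraries of 3 h, 0.26, 0.45 and 0.22 over those of 24 h, and 0.10, 0.42 and 0.34 over those of 48 h. Whether r differed between times was not tested. For the receptor itself the leading genes were Col4a5 (0.746), Dennd4c (0.740) and Fzd1 (0.726), and for Arnt Rad21 (0.817), Gabpa (0.798) and Tsc22d2 (0.792). Cyp1a1 stood at -0.171 with Ahr and -0.295 with Arnt. The values describe these libraries and are not tests.

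**Figure D5:**
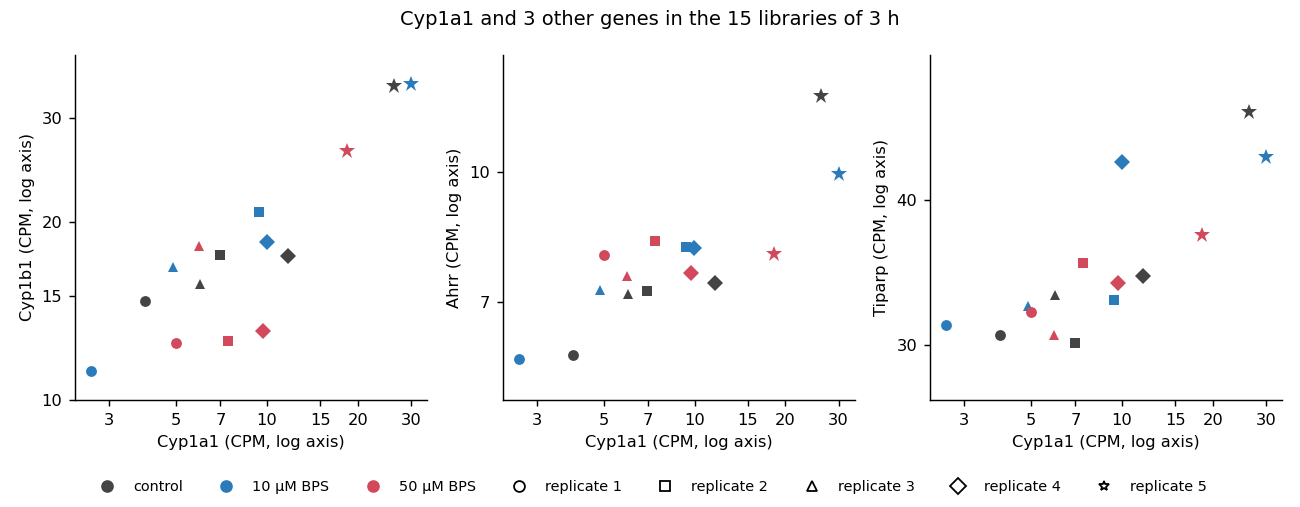
Levels of Cyp1b1, Ahrr and Tiparp against that of Cyp1a1 in the 15 libraries of 3 h, in CPM on log axes; colours are doses and symbols replicate numbers. The replicate 5 libraries lie at the right, at 18.4 to 30.1 CPM of Cyp1a1, and those of control and 10 µM BPS are also highest on each vertical axis.

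By levels over the 45 libraries, which include dose and time, Cyp1a1 was most like Grhl3 (0.760), Ovol1 (0.739) and Pwp1 (0.732), and Cyp1b1 most like Dynlt3 (0.869), Lgr6 (0.862) and Lmo7 (0.858). On this scale the 2 CYP1 genes had an r of 0.010 with each other. Ahrr was led by Cyp1a1 (0.615), Tiparp (0.609) and Tdrp (0.582), Tiparp by Sec23b (0.714), Riok2 (0.712) and Trmt10b (0.701), Ahr by Fzd1 (0.757), Dsc2 (0.739) and Lamc1 (0.728), and Arnt by Jmy (0.813), Ccdc186 (0.813) and Arfgef1 (0.806).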

How the data were processed

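RNA of cultured forelimbs was measured by poly(A) RNA-seq in 45 libraries (9 groups of 5). The authors deposited, per the file headers, raw read counts per gene for each library, and in 9 tables of pairwise comparisons also log2 fold changes and p-values (raw and adjusted). Named in the submitters' processing notes, with no role or order, are the mm10 build, HTSeq 0.6.1, STAR 2.5, CASAVA 1.8 and DESeq2 (version 2). Neither the annotation release nor the counting options are stated in those notes or the labels. All 9 tables were joined by gene identifier. Control counts repeated between tables, 1319925 values, were compared and 0 differed, and 0 columns belonged to other samples. Libraries held 15233143 to 23077457 counted reads (median 18225641), so 3 reads equal 0.13 to 0.197 CPM. This limit covers counting error only.

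CPM were computed with edgeR's TMM-scaled library sizes, and log2 values used a prior count of 2. The main test was edgeR 4.0.16's quasi-likelihood test (R 4.3.3) on raw counts, with edgeR's filter on low counts, Benjamini-Hochberg adjustment over all genes tested and a threshold of 0.05. Each BPS and each control time comparison used its own 10 libraries, and dose steps, means over times and interactions used all 45. The alternatives were DESeq2 1.42.0, RLE size factors, no filter, a replicate block, all 45 libraries in a fit, and leaving out each replicate. Fits of the 15 libraries of a time, of the 10 libraries of the doses, without replicate 5, and the test of replicate number were added after seeing the data. The code was tested on simulated counts. A replicate pair never agreed within sampling noise.

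The 6 genes and the gene lists were chosen with earlier results of these data known. Of each list, genes were named if called in a comparison of BPS with control, or if among the 3 smallest p called in a control time comparison; a gene that met this rule is not reported here. Likeness was taken among genes with a mean of at least 1 CPM, the 3 highest r being named, and other pairs among the 6 genes were added after their values were seen. Genes that only DESeq2 called, or that were called between doses, were also named after their values were seen.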

Additional observations from a re-analysis of the deposited data

Results flagged for a closer look

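Of 54 sets of 5 libraries (6 genes in 9 groups), 6 had a library far from the other 4 by Dixon's test, where chance gives about 1 in 20. In each the library was replicate 5. Ahrr in control at 3 h stood at 12.3 CPM, with the next library at 7.38, a gap of 0.786 of the range (the critical value is 0.71). Cyp1b1 in control at 3 h stood at 33.9 CPM with the next at 17.6 (0.850 of the range), and Tiparp in control at 3 h at 47.6 CPM with the next at 34.4 (0.755). Cyp1a1 at 10 µM BPS and 3 h stood at 30.1 CPM with the next at 9.97 (0.732). At 48 h, Cyp1b1 at 50 µM BPS stood at 59.6 CPM with the next at 49.6 (0.722), and Tiparp at 10 µM BPS at 29.2 CPM, below the next at 30.9 (0.732), over a narrow range. What sets replicate 5 apart was not tested.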

How the results depend on the processing

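Of 1650 alternative values, 1592 kept their side of the threshold, and 0 called values reversed. Of 90 uncalled values, 45 changed sign under some alternative. The 1 call at 50 µM and 48 h (Cyp1a1) became 0 in the fit of all 45 libraries, with the replicate block (0.78 ± 0.179, adjusted p = 0.106) and without replicate 5 in both groups, and was 0 to 1 when single libraries were left out. It was called with RLE size factors (adjusted p = 0.0393), without the filter (0.00718), by DESeq2 (0.00166) and among the 15 libraries of 48 h (0.0144, or 0.0312 with the block). The cause of these differences was not tested. From 3 to 24 h in control, the 1 call became 2 in the fit of 45 libraries and without the filter (Tiparp added at an adjusted p of 0.0481 and 0.0166), and 2 without replicate 5 in both groups (Cyp1b1 added); leaving out single libraries gave 0 to 3. From 3 to 48 h the 3 calls became 1 to 3 when single libraries were left out. Tiparp was not called there with the block (-0.28, adjusted p = 0.0541), nor Cyp1a1 without the filter (-1.64, adjusted p = 0.0553).

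Same-numbered libraries did not deviate together (r above 0.1) in every pair of any comparison, so the numbers were not taken to pair samples. At 50 µM r ran from -0.071 to 0.077 at 48 h. It ran from 0.053 to 0.167 at 24 h and from 0.087 to 0.176 at 3 h. At 3 h and at 24 h 4 of 5 libraries matched their own number best. This rule does not show that the numbers carry no shared effect. Over all genes, calls at 50 µM moved from 9 to 256 (3 h), 62 to 949 (24 h) and 167 to 70 (48 h) with the block (24, 1182 and 272 with the block on the 15 libraries of a time), to 1 to 18, 2 to 315 and 55 to 282 when single libraries were left out, to 60 (3 h) and 258 (48 h) without the filter, which also raised the 24 h count by over 1.5 times, to 42, 289 and 462 by DESeq2, and to 16, 104 and 477 in the fit of 45 libraries. The 2670 calls of 24 to 48 h became 4063 in that fit. Without library scaling, 1 of 54 group levels moved by over 1 SD (Arnt at 50 µM and 48 h, 131 against 136 CPM). Depth limits Cyp1a1 most, at 30 to 563 reads per library.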

Other observations

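The order of the libraries at 3 h was followed up after the values were seen. In the 15 libraries of 3 h, edgeR's quasi-likelihood test of replicate number, with group as the other term, called 111 of 17150 genes (0.647%). Cyp1a1 had an F of 57.8 (adjusted p = 5.66e-06), Cyp1b1 26.6 (adjusted p = 0.000206) and Tiparp 8.27 (adjusted p = 0.0491). Ahrr (adjusted p = 0.316), Ahr (0.497) and Arnt (0.726) were not called. At 24 h 3851 of 17098 genes (22.5%) were called and none of the 6 (Cyp1b1 0.0503, Tiparp 0.0542), and at 48 h 3 of 17139 (0.0175%) and none of the 6. The labels do not say what a replicate number stands for.

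Among the lists at 3 h this test called 0 of 6 other targets of the receptor and 1 of 12 hypoxia genes (Ddit4). It called 3 of 10 epidermal markers (Krt14, Krt5 and Krt15) and 2 of 6 erythroid markers (Hba-a1 and Hbb-y), and none in the 9 other lists. The epidermal markers summed to 494, 565, 528, 309 and 491 CPM in control replicates 1 to 5, to 371, 578, 486, 354 and 487 CPM at 10 µM BPS and to 403, 500, 550, 288 and 512 CPM at 50 µM BPS. The sum was lowest in replicate 4 of each group. The part of these markers in the order of Cyp1a1 was not tested. At 24 h, where 22.5% of 17098 genes were called, the test called 8 of 12 chaperones and coregulators and 6 of 12 hypoxia genes. It also called 2 of 9 other targets and 3 of 15 bHLH-PAS genes. Of electron donors and ligand enzymes it called 1 of 7, and of relatives of TIPARP 3 of 12. The 24 h comparisons of these lists with BPS were fitted without replicate number.

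Over the 15 libraries of 3 h, deviations of log2 CPM from the group means were compared between Cyp1a1 and the other 5 genes, 15 relations in all with 24 and 48 h. Pearson's r was 0.90 for Cyp1b1 (permutation p = 0.00038, adjusted 0.0019), 0.85 for Ahrr (0.00029, adjusted 0.0019) and 0.84 for Tiparp (0.0001, adjusted 0.0015), and Spearman's rho was 0.79, 0.77 and 0.85 (permutation p = 0.0013, 0.00097 and 0.00083, adjusted 0.0063 each). Without the 2 libraries farthest from the median of Cyp1a1, replicate 5 of control and of 10 µM BPS, r was 0.79, 0.74 and 0.72, and without replicate 5 in all groups 0.66, 0.78 and 0.64. Ahr (r = -0.35) and Arnt (r = -0.46) did not pass (adjusted permutation p = 0.50 and 0.33), nor did any gene at 24 or 48 h (lowest adjusted permutation p of r 0.38). Libraries of the same number rank alike for Cyp1a1, so the 15 are not fully independent and these permutation p-values are too small to that extent.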
